A study of Mus musculus with 2 samples.

Results

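The region described is a block of ATAC-seq peaks on mouse chromosome 14, from 6 to 26 Mb of GRCm38. Its members are all peaks whose summit, the base with the highest signal, lay between those limits. They numbered 2586 of 58519 peaks in replicate 1 and 2540 of 64984 in replicate 2, a mean of 2563 ± 32.5 (SD, n = 2). The region was chosen because its peaks lie close together, so its density is given as a description and was not tested.

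ATAC-seq marks open chromatin by where the Tn5 transposase inserts sequencing adapters. The cells were LβT2, an immortalized mouse gonadotrope line (passage 21). Both samples received 4 pulses of 2 nM GnRH, the hypothalamic hormone that drives gonadotropin synthesis, at intervals of 2 h, and were harvested after 6 h and 45 min. This was the only condition, with no vehicle control, the sources used here name no input DNA, and the labels do not say whether the replicates came from separate cultures. Of the gonadotrope genes listed as markers, Lhb, Cga, Gnrhr and Nr5a1 had a promoter peak in both replicates and Pitx1 in neither, and Tshb, Gh, Prl, Pomc and Ghrhr, markers of other pituitary lineages, had none.

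Open chromatin in mammalian cells is usually found as short intervals at active promoters, which are often rich in CpG, and at enhancers in introns and between genes. The beginning of mouse chromosome 14 lies next to the centromere. It holds arrays of near-identical predicted genes, and a short read from such an array can be placed at many copies. A summit is called single-copy here when the 50 bp around it occur once in the C57BL/6J reference genome. Peak strength is given as tags, the number of extended reads stacked at the summit, which was solved from the deposited fold and p-value. Replicate 1 listed peaks from 10 tags upwards and replicate 2 from 11 tags, and counts this low carry a large counting error. The number of DNA copies per cell and the accessibility of each copy cannot be told apart in these counts.

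The sequences below show the reference bases on the plus strand around 8 summits that the results turn on, read from the RefSeq copy of GRCm38, with every CpG in capitals. They are windows centred on the summit, at the strongest promoter peak of the region (Gm21738, chr14:19417250-19417350), at its strongest single-copy promoter peak, over the paired starts of Rpl15 and Nkiras1 (chr14:18271114-18271214), and at the first 2 intronic peaks, in Cadps (chr14:12821988-12822088) and Ptprg (chr14:12144319-12144419). The others are the first 2 intergenic peaks, near Gm3460 (chr14:6637273-6637373) and Kcnma1 (chr14:24035684-24035784), and the strongest single-copy peak shared by both replicates in each of 2 plateaus of density, in Ptprg (chr14:11775371-11775471) and upstream of Rarb (chr14:16912968-16913068).
Gm21738 promoter: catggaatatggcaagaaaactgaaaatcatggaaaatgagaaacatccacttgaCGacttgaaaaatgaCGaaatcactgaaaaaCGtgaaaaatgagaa
Rpl15 and Nkiras1 promoter: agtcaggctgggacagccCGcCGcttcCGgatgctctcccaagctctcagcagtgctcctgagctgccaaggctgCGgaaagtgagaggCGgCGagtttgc
Cadps intron: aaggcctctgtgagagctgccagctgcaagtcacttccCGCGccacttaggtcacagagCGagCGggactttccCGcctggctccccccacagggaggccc
Ptprg intron: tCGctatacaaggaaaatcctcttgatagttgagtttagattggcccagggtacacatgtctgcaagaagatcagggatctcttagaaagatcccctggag
Gm3460 intergenic: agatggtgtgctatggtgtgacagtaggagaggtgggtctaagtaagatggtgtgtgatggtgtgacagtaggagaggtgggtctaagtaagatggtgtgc
Kcnma1 intergenic: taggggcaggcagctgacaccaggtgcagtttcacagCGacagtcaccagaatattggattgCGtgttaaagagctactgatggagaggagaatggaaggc
Ptprg plateau: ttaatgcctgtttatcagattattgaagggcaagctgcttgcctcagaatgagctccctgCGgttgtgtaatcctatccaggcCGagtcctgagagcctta
Rarb plateau: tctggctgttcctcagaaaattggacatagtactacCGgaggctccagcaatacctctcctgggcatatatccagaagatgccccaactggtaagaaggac

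The promoter window shared by Rpl15 and Nkiras1 held 6 CpG and the window in Cadps held 5, while the 2 plateau windows held 2 and 1. The Gm21738 window lay in an exon, 1.63 kb from the start site, and is labelled promoter only because its peak reached within 1 kb of that site. It was 33.7% G or C, and the 1001 bp around it were 88.6% identical to themselves when shifted by 351 bp. A-rich tandem DNA of this kind is known from the major satellite, the repeat that fills the chromatin around mouse centromeres. The 1001 bp around the Gm3460 summit were 95.9% identical at a shift of 90 bp, so this single-copy summit also lay in a tandem repeat, one whose units differ slightly. At the other 6 summits the best shift gave between 29.5% and 32.9% identity. This shift finds tandem repeats only, and the copy count finds exact matches of 50 bp only. A diverged copy of a repeat that lies elsewhere in the genome would escape both, and these summits were not checked for it.

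The region was not dense throughout. The highest density did not begin at 6 Mb: the 3 bins of 1 Mb before it, from the start of the assembled sequence at 3 Mb, held 507, 600 and 608 peaks in replicate 1 and 466, 599 and 573 in replicate 2. Inside the region, the bin from 6 to 7 Mb held 617 and 597 peaks in replicates 1 and 2, and that from 7 to 8 Mb held 450 and 419. Between 8 and 20 Mb a bin of 1 Mb held 72 to 211 peaks in replicate 1 and 77 to 183 in replicate 2, and between 20 and 25 Mb it held 27 to 46 and 33 to 46. The last bin, from 25 to 26 Mb, held 89 and 79 peaks, and the first bin outside, from 26 to 27 Mb, held 85 and 97. Neither limit therefore fell on an edge of density.

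The peaks next to the limits were alike on both sides. In replicate 1 the last summit before 6 Mb had 23 tags and the first after it 21 tags, and in replicate 2 they had 21 and 15 tags. At 26 Mb the last summits inside had 11 and 14 tags and the first outside had 13 tags in each replicate. All of these 8 summits lay in sequence with several copies, from 3 to 19. The gene nearest the start was the predicted gene Gm8206, with a promoter peak in both replicates, and the gene nearest the end was Duxbl1, a double homeobox gene, with a promoter peak of 14 tags in replicate 2 only.

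Over the whole region the density was 130.0 peaks per Mb of known sequence in replicate 1 and 128 in replicate 2. Chromosome 14 from 26 Mb to its end held 45.6 and 46.4 per Mb, so the ratio was 2.85 and 2.75 (mean 2.80 ± 0.0718, n = 2). The peaks covered 8.30% and 8.74% of the sequence, against 2.12% and 2.38% of the rest of the chromosome. Of the members, 44.9% and 45.5% had a single-copy summit, against 31.8% and 32.6% in the rest. Counting these summits alone, the ratio of densities was 4.03 and 3.84. The rest of the chromosome was itself uneven: it held 437 and 414 peaks per Mb from 41 to 45 Mb, mostly in multi-copy sequence, and 107 and 96.5 per Mb from 33 to 35 Mb, mostly single-copy. Against the part from 45 Mb onwards, which held 26.8 and 28.8 peaks per Mb, the ratio for the region was 4.84 and 4.44.

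Among 2317 overlapping windows of 20 Mb over all chromosomes, placed at steps of 1 Mb, the region ranked 7 by all peaks and 1 by single-copy summits in each replicate. By all peaks it held 2586 and 2540, against 1331 and 1353 in the highest window of any other chromosome, on X. The windows ranked above it were therefore all on chromosome 14. The region's 1160 and 1155 single-copy summits stood beside 508 and 584 in the highest window of any other chromosome, on chromosome 2. Every one of its 20 bins of 1 Mb lay above the median bin of the genome in both replicates, for all peaks and for single-copy summits.

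Along its length the region fell into stretches that were set after the densities had been seen. The first, from 6 to 7.7 Mb, is called the array stretch, the second, from 7.7 to 20 Mb, the middle stretch, and the third, from 20 to 26 Mb, the last stretch. The array stretch held 1042 and 994 peaks in 1.7 Mb, or 613 and 585 per Mb, and its peaks covered 60.1% and 62% of the sequence. Only 4.13% and 3.32% of their summits were single-copy, and the median summit sequence had 13 and 12 copies. In each list 87.5% of these peaks overlapped a peak of the other replicate by at least 1 bp. Where peaks cover this much of the sequence, many overlaps come from coverage alone, so the share does not show that the same peaks were called. The stretch ended abruptly. The 4 bins of 20 kb from 7.6 to 7.68 Mb held 8 to 14 peaks in replicate 1 and 7 to 12 in replicate 2, the next bin held 3 and 4, and the 5 bins after that held 0 to 3 and 0 to 2.

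All 36 protein-coding genes annotated in the array stretch carried predicted names (Gm followed by a number). All 36 had a promoter peak in both replicates, against 31.5% of all protein-coding genes. Any peak that touched the 1 kb on either side of a start site was counted. As peaks covered 60.1% and 62% of the stretch, many such windows would be touched wherever they lay. Promoters held 527 and 565 summits per Mb here, below the 658 and 635 between genes, so the count does not set promoters apart. The strongest promoter peak of each gene had a summit sequence with 2 or more copies, and the copy a read came from cannot be told apart. The strongest single-copy peak of the whole region also lay here, between genes, 14.9 kb upstream of Gm3460. It had 159 and 176 tags, the highest of any single-copy summit in the region in both replicates, and sat in the tandem repeat printed above.

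The middle stretch held 1275 and 1274 peaks, or 104 per Mb in each replicate, and 72.7% and 71.8% of them had single-copy summits. Its single-copy density was 75.7 and 74.7 per Mb, 5.23 and 4.94 times that of the rest of the chromosome. Allowing for the share of the sequence that is single-copy at all, 88.1% of the stretch and 87.5% of the rest, left the ratio at 5.19 and 4.90. The median gap between neighbouring single-copy summits was 5.77 kb and 5.91 kb, against 24.8 kb and 23.6 kb in the rest. Spacing was uneven, and the longest gap in the stretch was 172 kb and 190.4 kb. The peaks were mostly weak. The median was 13 and 14 tags against 14 and 16 in the rest, and 63.5% and 56.2% lay within 3 tags of the lowest in their list, against 49.3% and 36.1%. Only 32% and 31.4% of the single-copy peaks overlapped a peak of the other replicate, against 51.6% and 47.5% in the rest of the chromosome. Restricted to peaks with a −log10 q of at least 10, a stricter limit on the false discovery rate, the single-copy density of the middle stretch was 1.93 and 1.43 times that of the rest.

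For all peaks the last stretch held 45.2 and 45.7 per Mb, a ratio of 0.992 and 0.985 to the rest of the chromosome. Against the chromosome from 45 Mb onwards, without the dense stretch at 41 to 45 Mb, the ratio was 1.69 and 1.59. For single-copy summits it held 31.9 and 34.8 per Mb, and the ratio was 2.21 and 2.30. Its single-copy peaks were stronger than those of the middle stretch, with a median of 14 and 18 tags, and 59.5% and 51.7% were shared between replicates. In the last stretch 16.8% and 32.4% of them reached a −log10 q of 10, against 4.96% and 7.54% in the middle stretch and 13.5% and 26% in the rest of the chromosome. The density of single-copy peaks at that limit was 2.76 and 2.87 times that of the rest, above the 1.93 and 1.43 of the middle stretch.

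**Figure D1:**
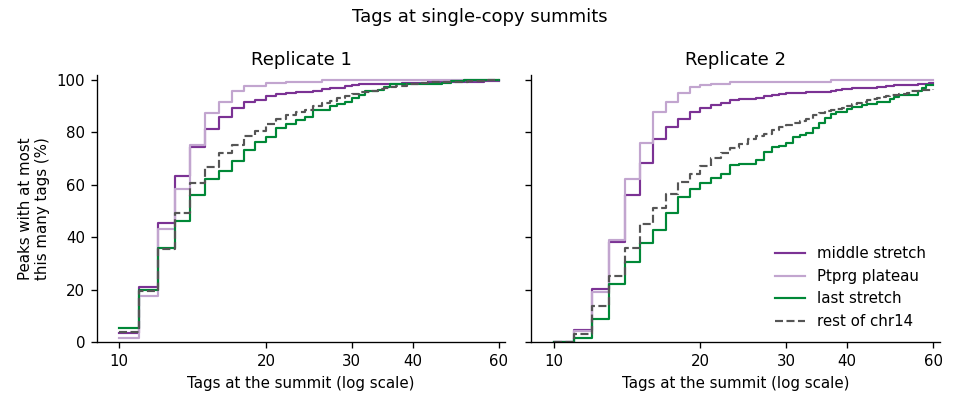
Share of single-copy summits with at most a given number of tags (log axis, shown up to 60 tags), in 1 panel for each replicate, for the middle stretch, the Ptprg plateau inside it, the last stretch and chromosome 14 from 26 Mb. At 15 tags the curves stood at 81.4% and 68.5% in the middle stretch and at 67.0% and 45.3% in the rest of the chromosome.

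Within the middle stretch, 2 plateaus of single-copy peaks stood out by their density in bins of 100 kb, and both were singled out after the values were seen. The first, from 11.5 to 12 Mb, lay over the 5′ part of Ptprg, a receptor-type protein tyrosine phosphatase. Its 5 bins held 27, 38, 34, 38 and 29 single-copy summits in replicate 1 and 20, 29, 35, 27 and 35 in replicate 2. These bins took ranks 1, 2, 3, 4 and 6 among 27268 bins of the genome by the mean of both replicates. The bin before the plateau held 9 and 5, and the bin after it 17 and 18. The plateau therefore rose sharply and fell more slowly. In bins of 20 kb, the counts before 11.54 Mb were 0 to 5 and 0 to 3, and the next 3 bins held 4 to 11 and 5 to 8. The annotated start of Ptprg is at 11553532.

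Over the Ptprg plateau the single-copy density was 332 and 292 per Mb, 22.9 and 19.3 times that of the rest of the chromosome, with a median gap of 2.00 kb and 2.34 kb between neighbours. The peaks covered 12% and 10.9% of the sequence. Almost all were weak: the median was 13 and 14 tags, the highest 26 and 37, and 1 of the single-copy peaks in each replicate reached a −log10 q of 10. Of the single-copy peaks 31.3% and 34.9% were shared between replicates. The strongest shared peak lay 222 kb into the gene, at chr14:11775057-11776018 in replicate 1, with 26 and 37 tags, and the promoter peak of Ptprg itself had 20 and 21.

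The second plateau, from 16.5 to 17 Mb, spanned the 5′ part of Rarb, which encodes the retinoic acid receptor beta, and the sequence upstream of it. Its 5 bins held 21, 19, 16, 22 and 15 single-copy summits in replicate 1 and 22, 18, 13, 15 and 15 in replicate 2, between neighbours of 6 and 9 on one side and of 9 and 9 on the other. The single-copy density was 186 and 166 per Mb, 12.8 and 11 times that of the rest. The median was 12 and 13 tags, and 23.7% and 28.9% of the single-copy peaks were shared. Its strongest shared peak lay 93.9 kb upstream of Rarb, with 40 and 38 tags. In the 11 Mb of the middle stretch outside both plateaus and a rise at 19.4 to 19.7 Mb, 60.4 and 62 single-copy summits per Mb were left.

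That rise was of the array kind, with 95 and 86 peaks of which 4 in each replicate had single-copy summits. In the last stretch, the bins from 25.3 to 25.6 Mb, around the start of Zmiz1, held 11, 12 and 13 single-copy summits in replicate 1 and 10, 14 and 14 in replicate 2, with 0 in the bin before and 3 and 5 in the bin after. These peaks were stronger and more reproducible than those of the plateaus, with a median of 14.5 and 17.5 tags, and 69.4% and 55.3% of the single-copy ones were shared.

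**Figure D2:**
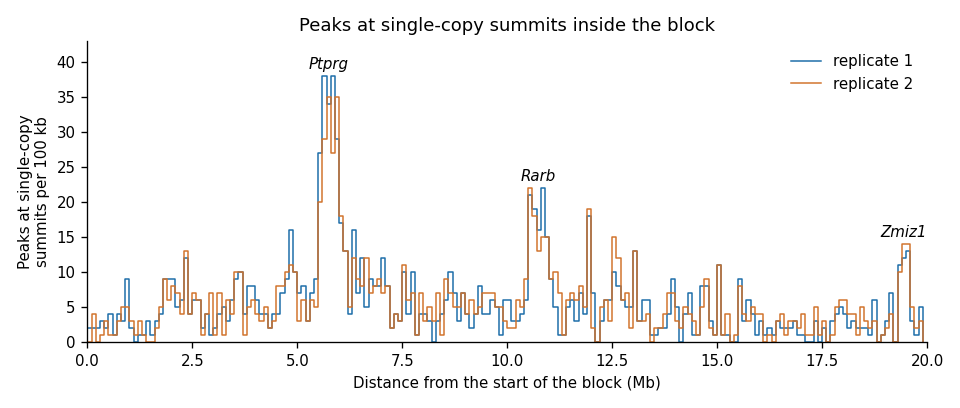
Peaks at single-copy summits in each 100 kb bin against distance from the start of the region, with 1 line for each replicate and the gene under each of 3 rises. The bins over Ptprg reached 38 in replicate 1 and 35 in replicate 2, and those over Rarb reached 22 in each.

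By feature, summits within 1 kb of a transcription start site were counted as promoter, then exon, intron and intergenic. In replicates 1 and 2, introns held 1221 and 1189 of the members, intergenic sequence 1070 and 1055, promoters 222 and 230, and exons 73 and 66. Introns made up 54.2% of the sequence of the region and 47.2% and 46.8% of its peaks, and intergenic sequence 38.0% of the sequence and 41.4% and 41.5% of the peaks. In the rest of the chromosome introns were 36.7% of the sequence and held 26.2% and 27.6% of the peaks.

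The intronic density was 113 and 110 peaks per Mb of intron, against 32.6 and 34.9 in the rest of the chromosome, a ratio of 3.48 and 3.16 (mean 3.32 ± 0.222, n = 2). The intergenic density was 142 and 140 per Mb against 46.6 and 45.3, a ratio of 3.04 and 3.09 (mean 3.06 ± 0.0305). The promoter density differed least, with a ratio of 1.77 and 1.67. With single-copy summits alone, the ratios were 4.91 and 4.67 in introns, 4.18 and 4.34 in intergenic sequence and 1.85 and 1.69 at promoters. The surplus over the rest of the chromosome was thus larger away from promoters than at them, in both replicates.

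The stretches differed in this. In the array stretch all peaks were dense everywhere, at 574 and 527 per Mb of intron and 658 and 635 per Mb of intergenic sequence. In the middle stretch single-copy summits stood at 86.5 and 83.2 per Mb in introns and at 54.3 and 55.3 per Mb between genes, which is 6.82 and 6.30 times and 5.21 and 5.52 times the rest. In the last stretch the same ratios were 2.25 and 2.44 in introns and 1.51 and 1.83 between genes. In the Ptprg plateau, where introns are 87.8% of the sequence, they held 149 of 166 and 132 of 146 single-copy summits. The Rarb plateau had like densities in introns (185 and 172 per Mb) and between genes (182 and 136 per Mb).

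**Figure D3:**
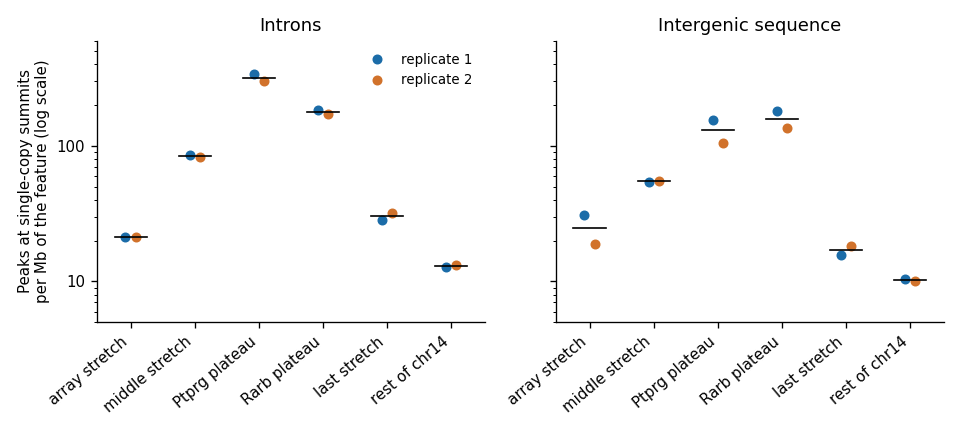
Single-copy summits per Mb of intron (left) and of intergenic sequence (right), on a log axis, for the stretches and plateaus of the region and for chromosome 14 from 26 Mb, with 1 point for each replicate and a bar at their mean. Introns of the middle stretch held 86.5 and 83.2 summits per Mb and those of the rest of the chromosome 12.7 and 13.2.

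Intronic and intergenic peaks of the region were shared between replicates less often than promoter peaks. Among single-copy summits 35.3% and 34.6% of intronic peaks, 32.5% and 30.2% of intergenic peaks and 65.1% and 60.3% of promoter peaks were shared. In the rest of the chromosome the shares were 37.0% and 34.5%, 44.9% and 42.1%, and 79.7% and 70.0%. Promoter summits were also the strongest: in the region 3.87% and 7.82% of intronic, 4.56% and 6.40% of intergenic and 27.9% and 45.6% of promoter summits reached a −log10 q of 10.

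The 5 longest protein-coding genes differed widely in the density of single-copy summits in their introns. Ptprg, 689 kb long, held 26.7 and 25 per 100 kb of intron. Cadps, 451 kb long, whose product primes dense-core vesicles for secretion, held 8.92 and 9.16. Fhit, 1612 kb long, a diadenosine triphosphate hydrolase in a chromosome fragile site, held 6.82 and 6.00. All 3 lie in the middle stretch. The other 2 lie in the last stretch: Kcnma1, 725 kb long, the pore-forming subunit of the large-conductance calcium-activated potassium channel, held 2.32 and 3.04, and Lrmda, 1036 kb long, 1.67 and 2.07. The order of the 5 genes was the same in both replicates. The stretches were set after their densities had been seen, so higher values in the genes of the middle stretch are a description. Over all introns, the middle stretch held 86.5 and 83.2 single-copy summits per Mb and the last stretch 28.6 and 32.3. The bin with the lowest mean count of all peaks, from 23 to 24 Mb, with 27 and 36, lay over most of Kcnma1 and the end of Lrmda. The bin with the most, from 6 to 7 Mb, held predicted genes only.

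The strongest single-copy intronic peaks found in both replicates lay in Cadps, with 60 and 105 tags, and in Ptprg, with 46 and 95 tags. The summit in Cadps was 1007 bp downstream of a start site, just past the limit of 1 kb, and since the peak itself reached within that limit it was also the promoter peak of Cadps. Next came a peak in Thrb, the thyroid hormone receptor beta gene, 103 kb upstream of the nearest annotated start, with 42 and 70 tags. A peak with 38 and 67 tags lay in the noncoding gene Gm26680 in the array stretch, and one with 31 and 67 tags in Ube2e2, a ubiquitin-conjugating enzyme gene. The peak in Ptprg was at chr14:12143654-12145096 in replicate 1, outside the plateau and 9.61 kb upstream of the nearest annotated start. All 5 had more tags in replicate 2 than in replicate 1. After the repeat near Gm3460, the strongest intergenic peaks lay 21.2 kb upstream of Kcnma1 with 31 and 57 tags, 82.1 kb downstream of the start of Lrrc3b with 30 and 48, 93.9 kb upstream of Rarb with 40 and 38, and 135 kb upstream of Cadps with 25 and 42.

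Protein-coding genes of the region carried promoter peaks more often than genes elsewhere on the chromosome. Of 132 genes, 81.8% had one in replicate 1 and 87.9% in replicate 2 (mean 84.8% ± 4.29, n = 2), where a promoter peak is any peak that touches the 1 kb on either side of a start site. The share was 51.6% and 58.0% of 707 genes in the rest of the chromosome. Over all 21938 protein-coding genes of the genome it was 32.9% in replicate 1 and 45% in replicate 2. In both replicates 106 of the 132 genes (80.3%) had a promoter peak, against 31.5% of all genes, and 14 (10.6%) had none in either, against 53.6%. The density of peaks chose this region, so these shares are a description.

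The array genes raised the share. Of the 96 genes outside the array stretch 75% and 83.3% had a promoter peak, and of the 84 of these without a predicted name (Gm or Rik) the shares were the same, against 48.4% and 55.1% of 595 such genes in the rest of the chromosome. The 39 such genes of the middle stretch (76.9% and 82.1%) and the 45 of the last stretch (73.3% and 84.4%) were alike. The direction of a difference in promoter strength depended on what was counted. Taking the strongest promoter peak of each gene where it was single-copy, the median was 25 and 39 tags in the region and 22 and 34 in the rest. Over all single-copy promoter summits it was 16 and 21 tags in the region and 17 and 25 in the rest, and 27.9% and 45.6% against 32.2% and 53.2% reached a −log10 q of 10.

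The strongest promoter peak was that of the predicted gene Gm21738, at chr14:19415687-19419710 in both replicates, with 7894 and 9395 tags. Its summit sequence, in an exon and in the satellite-type repeat printed above, occurs 63 times in the reference. The next 4 were single-copy. Rpl15, a ribosomal protein gene, and Nkiras1, which encodes an inhibitor of NF-kappa B signalling, overlap at their 5′ ends, are transcribed in opposite directions and shared 1 peak with 95 and 147 tags. Pdhb, which encodes the beta subunit of the first component of pyruvate dehydrogenase, had 71 and 126 tags, and the predicted gene Gm26661 had 56 and 138.

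Of 45 named genes in role groups, chosen for this description, 37 had a promoter peak in both replicates, 1 in replicate 1 only, 4 in replicate 2 only and 3 in neither. Among all genes of the region 80.3% had one in both, and among those without predicted names 72.6%, so the counts by role describe the members and set no role apart. For 12 of the 106 genes with a promoter peak in both replicates, 3 of them in the role groups, the strongest peak of replicate 1 did not overlap that of replicate 2. All 3 nuclear receptor genes had one in both. Nr1d2, which encodes the circadian repressor REV-ERB beta, had 81 and 86 tags, and Thrb had 35 and 53. Rarb, under its plateau, had 16 tags at one start site in replicate 1 and 13 tags at another, 243 kb away, in replicate 2, so these are not values of 1 promoter. Ptprg, under the other plateau, had 20 and 21 tags at overlapping peaks, below the median of 25 and 39.

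Among genes of transcription and chromatin, 4 of 7 had a promoter peak in both replicates: Top2b, a DNA topoisomerase, with 61 and 113 tags, the histone acetyltransferase Kat6b with 51 and 74, Atxn7, a subunit of the SAGA complex, with 21 and 47, and Zmiz1, a transcriptional coregulator, with 21 and 37. Fezf2, a forebrain transcription factor, and Polr3a, the largest subunit of RNA polymerase III, had one in replicate 2 only, with 17 and 28 tags. Zfp503, a zinc finger repressor, had none.

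Genes of protein synthesis, sorting and turnover had a promoter peak in both replicates in 9 of 10 cases. Beside Rpl15 they included Mrps16 of the mitochondrial ribosome (48 and 68 tags), the chaperone gene Dnajc9 (36 and 56) and Ngly1, which removes sugar chains from misfolded glycoproteins (29 and 56). The exception, Ube2e1, had 28 tags in replicate 2 and no peak in replicate 1. Of 8 genes of mitochondria and metabolism, 7 had one in both, among them Oxsm of mitochondrial fatty acid synthesis (47 and 68), adenosine kinase, Adk (36 and 50), and the outer membrane channel gene Vdac2 (25 and 58). Acox2, an oxidase of peroxisomes, had 11 tags in replicate 1 only.

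In the group of cytoskeleton, adhesion and signalling, 9 of 10 had a promoter peak in both replicates, from Vcl, which encodes vinculin, with 35 and 38 tags, to Dlg5, a scaffold protein gene, with 12 and 23. Plau, which encodes urokinase, had none. All 4 genes of secretion, synapse, channels and carriers had one in both: Cadps with 60 and 105 tags (the peak already given among the intronic ones), the bicarbonate carrier gene Slc4a7 with 43 and 69, Synpr with 14 and 24 and Kcnma1 with 12 and 19. Fhit had 29 and 49 tags. Of the 2 muscle genes Myoz1 had none and Synpo2l had 12 tags in replicate 2 only.

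**Figure D4:**
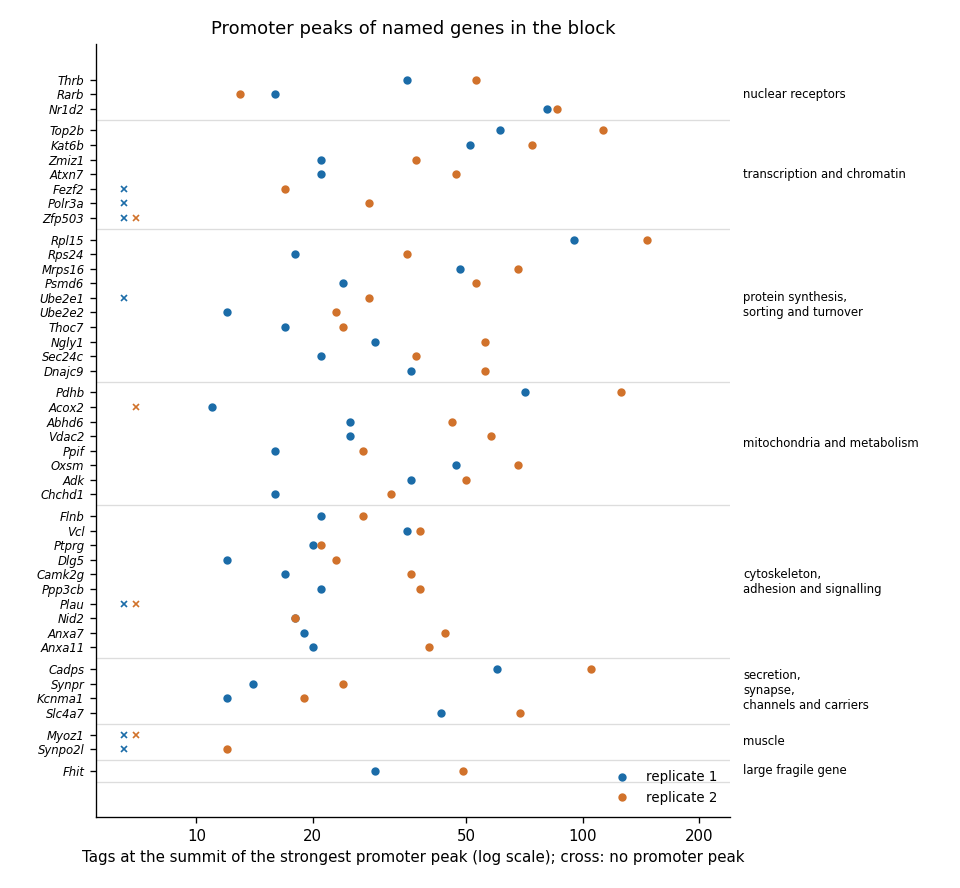
Tags at the summit of the strongest promoter peak of each named gene, on a log axis and grouped by role, with 1 point for each replicate and a cross where a replicate had no promoter peak (the points of Rarb, Thoc7 and Ube2e2 are peaks that do not overlap between replicates). Rpl15 was highest with 95 and 147 tags, and Zfp503, Plau and Myoz1 had a peak in neither replicate.

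The 14 genes with a promoter peak in neither replicate were named after their values were seen, apart from Zfp503, Plau and Myoz1. Of them, 6 lay in the middle stretch: Dnase1l3, a secreted DNase, Oit1, the cilium gene Sntn, the olfactory receptor genes Olfr720 and Olfr31, and the predicted gene Gm3839. The other 8 lay in the last stretch. They were Kcnk5, a potassium channel gene, Mss51, Myoz1 and Dupd1, which are known from skeletal muscle, and Plau, Zfp503, Zcchc24 and E330034G19Rik. The density of the middle stretch therefore did not extend to every promoter in it.

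The bases at single-copy summits were poorer in G and C than those of the rest of the chromosome. The median share of G or C over 200 bp was 46.5% and 47% in the region, 46% and 46.5% in the middle stretch, 50.5% and 52% in the last stretch and 49% and 50% in the rest. A CpG content above 0.6 of that expected from base composition was found at 5.78% and 6.41% of summits in the region and at 3.88% and 4.15% in the middle stretch, against 19.1% and 21.3% in the rest. In the plateaus it was found at 1.81% and 2.74% over Ptprg and at 0% and 1.20% over Rarb. These values took all features together, and promoters held 11.1% and 11.8% of the region's single-copy summits against 25.9% and 28.6% in the rest. By feature, the median G or C share was 46% and 47% against 46.5% and 47% between genes. In introns it was 46% and 46.5% against 47.5% and 48.25%. At promoters it was 53% and 56% against 59.5% and 61.5%, and in exons 47.25% in each replicate against 51.5% and 53.5%.

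Short consensus sequences were counted on either strand in the 200 bp at single-copy summits and, for comparison, in 200 bp windows at every 1 kb of single-copy sequence. A match is a description of the letters and not of binding. The SP1 core GGGCGG was in 4.48% and 5.02% of summits of the region and in 1.56% of its 16539 grid windows, against 10.3% and 14.2% of summits and 1.71% of windows in the rest of the chromosome. In the middle stretch it was in 2.80% and 3.50% of summits and in the last stretch in 12.6% and 12.1%. Outside promoters, it was in 1.26% and 1.67% of the region's summits, near the share of its windows, and in 2.36% and 3.67% in the rest. The CTCF consensus was in 1.12% and 0.952% of summits and 0.0846% of windows of the region, and in 1.54% and 1.27% of summits and 0.0881% of windows in the rest.

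AP1 sites (TGACTCA or TGAGTCA) were in 3.79% and 4.59% of the region's summits and 3.42% of its windows, and in 4.56% and 6.10% of the summits in the rest. TCAAGGTCA, a site of the gonadotrope factor SF1, was in 1.21% and 1.04% of the region's summits and 0.441% of its windows, close to the 1.19% and 1.27% of summits in the rest. The middle stretch, which held most of the single-copy members, had AP1 sites in 3.45% and 3.72% of its summits against 3.18% of its windows, and SF1 sites in 1.08% and 0.984% against 0.361%. AGATAAG, read by GATA factors, was in 3.53% and 4.24% of the region's summits and 3.16% of its windows. The CCAAT box of NFY with its flanks was in 2.93% and 3.55% of summits and 2.28% of windows of the region, and in 4.20% and 4.63% of summits in the rest. The cyclic AMP response element TGACGTCA was in 4 and 7 summits (0.345% and 0.606%) and 0.0726% of windows, against 0.491% and 0.604% of summits in the rest. The EGR1 site (GCGTGGGCG or GCGGGGGCG) was in 3 and 4 summits (0.259% and 0.346%) and 0.0544% of windows, against 0.561% and 0.671% of summits in the rest.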

How the data were processed

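LβT2 cells of 1 treatment group were profiled by ATAC-seq as 2 replicates. The authors aligned paired reads of 50 bp with bowtie2 against the GRCm38 build, discarded duplicates, and ran MACS2 on each replicate, extending reads to 200 bp. Their methods give the effective genome size as the preset for Drosophila (dm), which is smaller than that of the mouse. The background, and with it the fold, p, q and lowest listed tags, rest on this setting, and its effect was not tested. Tool versions are not given in the sources used here. The deposited lists give every peak 4 numbers: a score, a fold (the ratio of summit signal to background), −log10 p and −log10 q. The score was not used.

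The members, the stretches and the gene groups were chosen with earlier results of these data known. The software was Python 3.11.15 with scipy 1.17.1, numba 0.67.0, matplotlib 3.10.9, pandas 2.3.3 and numpy 2.4.6. Tags at each summit were solved from fold and p-value, with a background of 3.05 tags in replicate 1 and 3.54 in replicate 2. The largest error of a recomputed −log10 p was 2.43e-05 among peaks with a fold under 10. Peaks with a higher fold were not part of that check. Lists had a median of 14 and 16 tags. Copies of 50 bp at each summit were counted on both strands of the assembled chromosomes. Peaks overlapping by at least 1 bp were called shared. Genes were those of GENCODE release M21, and the sequence was that of RefSeq. Densities are per Mb of sequence without assembly gaps. The solving of tags, the copy counts and the interval steps were tested on simulated data with known answers.

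Named were the genes of the role groups, the 5 strongest promoters, the 5 strongest intronic and 5 strongest intergenic peaks with single-copy summits in both replicates, the 5 longest genes, and the genes at the limits and in the fullest and emptiest bin. With 1 condition and no control, no groups were compared and no test was run. Text values are those of replicates 1 and 2, in that order, or a mean ± SD (n = 2). The shares of all protein-coding genes with a promoter peak serve as background. Read coverage was not analysed here. Alternatives were a stricter limit on −log10 q, single-copy summits, other limits of the region, another comparison region, other overlaps, another promoter width, and RefSeq transcripts. The limits 8 to 20 Mb and 20 to 26 Mb were chosen after seeing the data.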

Additional observations from a re-analysis of the deposited data

How the results depend on the processing

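Of 63 alternatives to 8 values, 26 kept the value and 37 moved it. A count was taken as kept within 1.5 times and other values within 1 SD between replicates. Because n = 2, leaving out 1 replicate cannot move a value beyond that SD. For values other than counts, those alternatives were therefore bound to be kept and show no robustness. The density ratios stayed above 1 in every alternative that was run. These did not include all peaks from 20 to 26 Mb, where the ratio was 0.992 and 0.985. With a −log10 q of at least 5 or 10 in place of every listed peak, the mean count fell to 995.5 or 372.0, the density ratio was 3.30 or 3.72, the intronic ratio 3.89 or 5.52 and the intergenic ratio 3.92 or 4.26. The same limits gave a single-copy share of 24.7% or 29.1%, and promoter peaks at 76.9% or 56.1% of genes. Applied to both lists before overlaps were sought, they gave a shared share of 75.7% or 70.1%, the latter 80.9% and 59.3% by replicate. Single-copy summits went the other way. With a −log10 q of at least 10 their density ratio was 2.06 and 1.79, against 4.03 and 3.84 without that limit. For all peaks at that limit the array stretch alone had a ratio of 30.1 and 20.3. Intronic and intergenic ratios were not computed for single-copy summits at that limit. Single-copy summits alone gave 1157.5 peaks and ratios of 3.93, 4.79 in introns and 4.26 between genes. They gave a median of 13.5 tags and promoter peaks at 53.0% of genes. With both lists cut to these summits the mean shared share was 33.26%. It was 37.9% and 36.5% when any peak of the other replicate counted. Limits of 7 to 25 Mb gave 1872 peaks, ratios of 2.27, 2.78 in introns and 2.38 between genes, a shared share of 51.7% and a single-copy share of 57.5%. Against all other autosomes the ratios were 6.23, 7.85 in introns and 6.59 between genes. The limits 8 to 20 Mb, chosen after seeing the data, gave 2.28, or 5.09 with single-copy summits, and 20 to 26 Mb gave 2.25 with single-copy summits. Overlap of at least 50% of both peaks left 30.5% shared, and summits within 100 bp 20.9%. A promoter of 2 kb gave 89.4% of genes and an intergenic ratio of 3.10, and RefSeq transcripts gave 76.4% of genes. Leaving out 1 replicate gave 2540 to 2586 peaks, ratios of 2.75 to 2.85, 3.16 to 3.48 in introns and 3.04 to 3.09 between genes, a shared share of 59.0% to 60.2%, a single-copy share of 44.9% to 45.5%, a median of 15 to 16 tags, and promoter peaks at 81.8% to 87.9% of genes. No paired analysis was possible because there was only 1 group. Depth limits single weak peaks, since the lists begin at 10 and 11 tags.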
